A study of Arabidopsis thaliana with 12 samples.

Results

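AT1G62770 encodes a protein of the pectin methylesterase inhibitor (PMEI) family of Arabidopsis thaliana. It was followed here together with 8 relatives of the same family, AT1G62760, AT5G62360, AT5G62350, AT4G25260, AT3G47380, AT2G01610, AT1G14890 and AT4G02250. The 9 genes were matched by locus to the array's annotation, and each was measured by 1 probe set. They are 9 of 66 family genes measured and 9 of 16550 named genes in all. AT1G62770 was selected on its measured response to dexamethasone without cycloheximide and on the smaller response with cycloheximide, and these values together hold all 4 groups. All its values are therefore a description, with no test. The other 8 genes are relatives, and how they were picked from the measured family is not recorded.

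The arrays are Affymetrix arrays hybridised with total RNA from the roots of 5-day-old seedlings, 4 h after treatment. All seedlings carried 35S::LBD16:GR in the arf7-2 arf19-5 background, so there is no array of a plant without the fusion or with functional ARF7 and ARF19. LBD16 is a transcription factor of lateral root initiation that acts downstream of the auxin response factors ARF7 and ARF19. Fusion to the glucocorticoid receptor (GR) keeps a protein out of the nucleus until dexamethasone (DEX) binds it, and the viral 35S promoter drives the fusion in most tissues. Cycloheximide (CHX) blocks protein synthesis. The 4 groups were 2 µM DEX with 10 µM CHX (DEX+CHX), 2 µM DEX, 10 µM CHX, and mock (0.1% DMSO). Each had 3 arrays, from 3 independent sets of RNA, per the labels. A DMSO content was recorded for mock only, so the solvent of the DEX, CHX and DEX+CHX groups is not known here.

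Pectin methylesterases remove methyl groups from homogalacturonan, the main pectin of the plant primary wall, after it has been secreted in a highly methylated form. PMEIs are small secreted proteins that bind these enzymes and block their activity. Pectin with few methyl groups can be cross-linked by calcium or cut by polygalacturonases and pectate lyases, and the balance of esterases and inhibitors is known to affect wall stiffness and organ initiation. The family also holds inhibitors of acid invertases, which look alike in sequence, so membership alone does not tell which enzyme a protein inhibits. No protein or promoter sequence of these genes is shown.

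The values are log2 expression values as the authors deposited them, and all differences below are log2 differences between group means with the standard error (SE) of a limma fit over all 12 arrays. A gene was called where its two-sided p, adjusted over 16550 genes by the Benjamini-Hochberg method, was below 0.05. Counts at an unadjusted p below 0.05 are given without the share of all genes at that threshold, which was not computed. Over the named genes, replicate arrays of a group correlated at 0.992 to 0.994. Array medians over these genes were 5.98 to 6.03 with CHX and 5.87 to 5.92 without. LBD16 (AT2G42430), whose probe set may read both the fusion and the native transcript, averaged between 9.33 and 9.60 in the 4 groups and was called in none of the comparisons. ARF7 and ARF19 were not analysed here. None of 9 root cell type markers had a named row, so the tissue label was not checked against them. Of 7 shoot markers 2 were measured: RCA (rubisco activase) averaged 6.58, 7.04, 6.58 and 7.45 in DEX+CHX, DEX, CHX and mock roots, and PORB (protochlorophyllide reductase) averaged 5.58, 4.36, 5.55 and 4.96. Of 6 root hair markers 2 were measured, the expansins EXPA7 (7.49, 8.56, 7.75 and 8.15 in the same order) and EXPA18 (9.17, 10.50, 9.38 and 10.42). With CHX against mock, RCA (-0.87), EXPA7 (-0.40) and EXPA18 (-1.05) were called lower and PORB was not called (0.59, adjusted p = 0.0636). With DEX+CHX against DEX, RCA (-0.46), EXPA7 (-1.07) and EXPA18 (-1.33) were called lower and PORB higher (1.23). None of the 4 was called with DEX against mock or with DEX+CHX against CHX. With DEX against mock, both shoot markers were lower (RCA -0.41 and PORB -0.60), each at an unadjusted p below 0.05. The unadjusted p of 1 root hair marker was below 0.05 too. With DEX+CHX against CHX, 1 root hair marker and 0 shoot markers had an unadjusted p below 0.05. The part of these 4 markers in the differences below, with DEX or with CHX, was not tested.

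AT1G62770 stood highest in DEX roots and lowest in mock roots. Its log2 signal was 6.93, 6.62 and 6.75 on the DEX+CHX arrays and 8.66, 8.31 and 8.64 on the DEX arrays. It was 5.53, 5.27 and 5.57 on the CHX arrays, against 5.02, 5.14 and 5.17 on the mock arrays. No array of a group overlapped one of another group, and the order was DEX, DEX+CHX, CHX, mock. The group means were 6.77 ± 0.16 with DEX+CHX, 8.53 ± 0.20 with DEX, 5.46 ± 0.16 with CHX and 5.11 ± 0.08 in mock roots (SD, n = 3 each). In extracts of whole roots, a change in the RNA per cell and a change in the number of cells that make it cannot be told apart.

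The response of AT1G62770 to DEX without CHX was 3.42 ± 0.13 (SE), or 10.7-fold. The comparison of DEX+CHX with CHX asks which transcripts respond to the fusion when new protein is not made. In it AT1G62770 was 2.48-fold higher with DEX+CHX, a difference of 1.31 ± 0.13, with all 3 DEX+CHX arrays above the 3 CHX arrays. Across 20 other settings of the analysis this difference ranged from 1.21 to 1.38, though most of them cannot move it. The response with CHX minus that without was -2.11 ± 0.18.

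CHX alone gave AT1G62770 a difference from mock of 0.35 ± 0.13, or 1.27-fold. It was 0.23 where each array was centred on its own median and 0.83 with quantile normalization. With DEX+CHX the gene was 3.41-fold lower than with DEX, a difference of -1.77 ± 0.13.

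**Figure D1:**
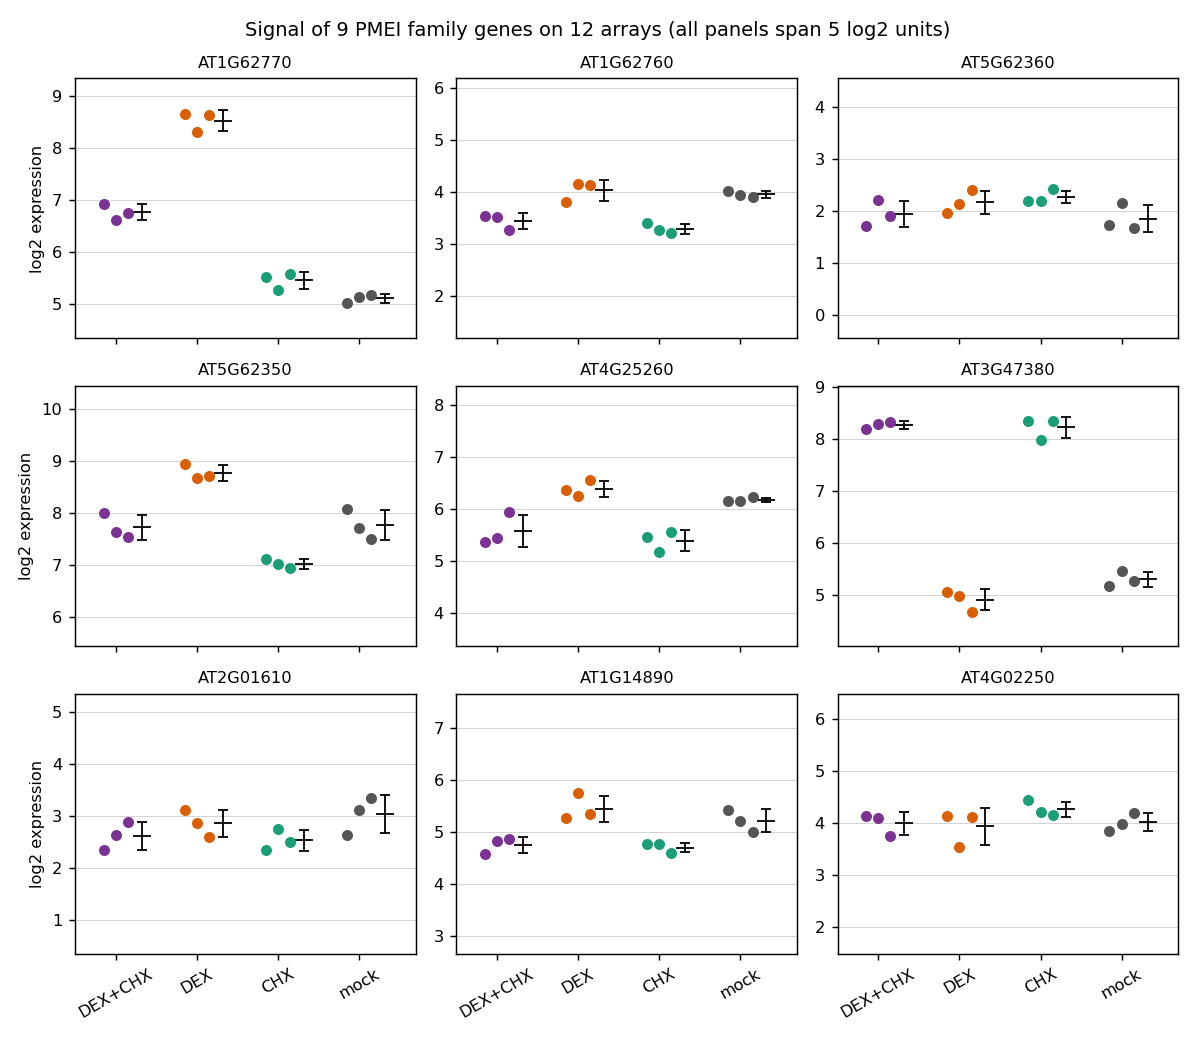
Log2 expression of the 9 PMEI family genes in roots of the 4 treatment groups. Each point is 1 array, the bar is the group mean with its SD (n = 3), and all panels span the same number of log2 units from different starting values. AT1G62770 forms 4 separate levels with DEX highest, AT5G62350 is highest with DEX and lowest with CHX, and AT3G47380 is high on all 6 arrays with CHX.

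Among the 8 relatives, AT5G62350 was the gene that rose with DEX. Its signal was 8.94, 8.66 and 8.70 on the DEX arrays, against 8.08, 7.71 and 7.50 on the mock arrays. The DEX arrays were all above the mock arrays, with means of 8.77 ± 0.15 and 7.76 ± 0.29 (SD, n = 3 each). The difference was 1.00 ± 0.16 (SE), or 2.01-fold, with an adjusted p of 0.00693. It was 0.0552 where the fit held just the DEX and mock arrays. Of the 8 relatives 1 was thus called, while 1.52% of all genes were called in this comparison (184 or 1.11% higher and 68 or 0.411% lower). The other 7 relatives had log2 differences between -0.39 and 0.32, and 1 of them, AT3G47380, had an unadjusted p below 0.05.

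With CHX present, AT5G62350 had log2 signals of 7.99, 7.64 and 7.54 on the DEX+CHX arrays, against 7.12, 7.01 and 6.93 on the CHX arrays. The groups did not overlap, and the difference was 0.70 ± 0.16, or 1.63-fold. It did not pass the threshold (adjusted p = 0.119). It passed in 2 of 20 other settings, the replicate block in the model (0.0104) and a variance trend fitted robustly (0.0338). In the other 18 it did not pass, with an adjusted p of up to 0.428. In this comparison, same-numbered arrays deviated together. The 95% interval of the difference ran from 0.35 to 1.05. The response with CHX minus that without CHX was -0.30 ± 0.22 (adjusted p = 0.983), so a smaller response with CHX was not shown for this gene.

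In the comparison of DEX+CHX with CHX, limma called 0 of the 8 relatives (1 at an unadjusted p below 0.05), while 0.592% of all genes were called (91 or 0.55% higher and 7 or 0.0423% lower). The 7 relatives other than AT5G62350 lay between -0.33 and 0.20. None of the 8 relatives was called for a difference between the responses with and without CHX, for which 0.127% of all genes were called (7 or 0.0423% positive and 14 or 0.0846% negative), and 2 of the 8 had an unadjusted p below 0.05. The 8 values ran from -0.65 for AT5G62360, whose 95% interval reached from -1.16 to -0.13 (adjusted p = 0.617), to 0.43 for AT3G47380 (0.01 to 0.84, adjusted p = 0.777). The median of the 8 values was -0.10, against -0.03 over all genes.

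AT1G62760 lies next to AT1G62770 in the RefSeq order of protein-coding genes of the TAIR10.1 assembly, with no protein-coding gene between them. Its signal was 3.82, 4.16 and 4.15 on the DEX arrays, against 4.03, 3.94 and 3.91 on the mock arrays. These arrays overlapped, and the difference was 0.08 (95% interval -0.18 to 0.34, adjusted p = 0.909). On the DEX+CHX arrays it was 3.54, 3.53 and 3.27, against 3.41, 3.27 and 3.22 on the CHX arrays, a difference of 0.15 (-0.11 to 0.40, adjusted p = 1). AT1G62760 is among the 4 of the 9 genes in the dimmest 30% of all genes, with a mean of at most 4.15. No detection call or background level is used here, so a small difference at such values may be out of reach of the array.

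AT5G62350, AT5G62360 and a further family gene, AT5G62340, follow each other in the same gene order. AT5G62360 is dim as well. It had 1.95, 2.13 and 2.40 on the DEX arrays, against 1.72, 2.14 and 1.67 on the mock arrays. Its log2 difference was 0.32 with DEX against mock (adjusted p = 0.582) and -0.33 with DEX+CHX against CHX (adjusted p = 1), and in both comparisons the arrays overlapped. AT5G62340 had -0.19 (adjusted p = 0.486) and 0.05 (adjusted p = 1). Of these 3 neighbours, AT5G62350 was the called one with DEX. Whether the probe sets of such neighbours read each other's transcripts was not tested.

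Over the 65 measured family genes other than AT1G62770, 1 was called with DEX against mock, 1.54% against 1.52% of all genes, and 0 with DEX+CHX against CHX, against 0.592%. Of the 57 family genes outside the 9, 0 were called with DEX against mock, and 0 with DEX+CHX against CHX, by limma at an adjusted p below 0.05, and 8 and 1 had an unadjusted p below 0.05. Their log2 differences ran from -0.53 to 0.75 and from -0.44 to 0.37. The median of the 65 was 0.01 with DEX against mock, against 0.03 over all genes, and -0.01 with DEX+CHX against CHX, against -0.01. The gene nearest to a call was AT1G10770, with 3.85, 3.38 and 3.91 on the DEX arrays and 2.96, 2.83 and 3.09 on the mock arrays. It differed by 0.75 ± 0.17 (adjusted p = 0.0519), and by 0.03 with DEX+CHX against CHX. It passed the threshold with the replicate block (adjusted p = 0.00956) and without DEX replicate 2 (0.0222), DEX+CHX replicate 2 (0.0484) or DEX+CHX replicate 3 (0.0498). AT1G10770 was singled out here after its values were seen.

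**Figure D2:**
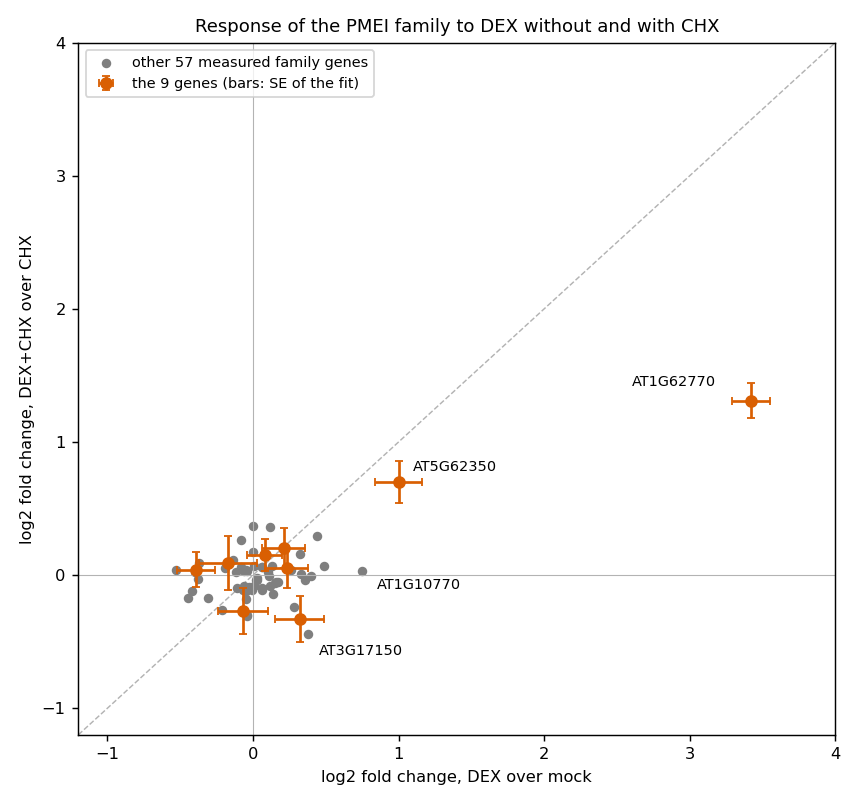
Log2 fold change of the 66 measured PMEI family genes with DEX over mock (horizontal) and with DEX+CHX over CHX (vertical). Orange points are the 9 genes with the SE of the fit, grey points the other 57, and the dashed line marks equal values. AT1G62770 (3.42 and 1.31) and AT5G62350 (1.00 and 0.70) lie apart from the cluster around 0.

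CHX moved more of the family than DEX did, as it did for genes in general. With CHX against mock, 5 of the 8 relatives were called (62.5%), 1 higher and 4 lower, while 54.9% of all genes were called (4002 or 24.2% higher and 5086 or 30.7% lower). With DEX+CHX against DEX, 5 of the 8 were called (62.5%), 1 higher and 4 lower, while 55.8% of all genes were called (3860 or 23.3% higher and 5375 or 32.5% lower). These shares are close to the background, and the median differences of the 8 relatives were -0.51 and -0.42, against -0.08 and -0.12 over all genes. Quantile normalization turned the balance of all calls, with 64.3% and 64.1% of calls higher in place of 44% and 41.8%. Centring each array on its median gave 36.3% and 34.9%. The median of all genes moved to 0.23 and 0.21 with quantile normalization and to -0.19 and -0.22 with centring, so directions of small CHX differences hold for the deposited scale only.

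Of the 9 genes, AT3G47380 was the one that CHX raised most. It had 8.20, 8.30 and 8.33 on the DEX+CHX arrays and 5.07, 4.99 and 4.69 on the DEX arrays. The CHX arrays had 8.36, 7.99 and 8.35, against 5.18, 5.47 and 5.27 on the mock arrays. The 6 arrays with CHX were all far above the 6 without. The rise was 2.93 ± 0.13, or 7.61-fold, with CHX against mock (adjusted p = 3.44e-09), and 3.36 ± 0.13, or 10.2-fold, with DEX+CHX against DEX (adjusted p = 1.14e-09). Across the other settings it ranged from 2.81 to 3.22 and from 3.24 to 3.66. With DEX alone the gene was lower on all 3 arrays than in mock, by a difference that did not pass the threshold (-0.39, adjusted p = 0.267), and with DEX+CHX it was near the CHX level (0.04, 95% interval -0.25 to 0.33).

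AT5G62350, which rose with DEX, was lower with CHX. It differed by -0.74 with CHX against mock (adjusted p = 0.00167) and by -1.04 with DEX+CHX against DEX (adjusted p = 0.000121), and both calls held in all 20 other settings. DEX+CHX roots, with 7.72 ± 0.24 (SD), overlapped mock roots, with 7.76 ± 0.29. The order of its levels was therefore DEX first, then mock and DEX+CHX together, then CHX.

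AT1G62760, AT4G25260 and AT1G14890 were each lower with CHX on the deposited scale. AT4G25260 had 5.38, 5.45 and 5.95 with DEX+CHX and 6.37, 6.25 and 6.56 with DEX. It had 5.46, 5.18 and 5.56 with CHX, against 6.16, 6.16 and 6.24 in mock roots, so the 6 arrays with CHX were all below the 6 without. The differences were -0.79 with CHX against mock (adjusted p = 0.000863) and -0.80 with DEX+CHX against DEX (adjusted p = 0.000754). AT1G62760 differed by -0.66 (adjusted p = 0.00044) and -0.60 (adjusted p = 0.00091), again with no overlap.

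AT1G14890 had 4.58, 4.83 and 4.87 with DEX+CHX and 5.28, 5.75 and 5.35 with DEX. Its CHX arrays had 4.77, 4.77 and 4.60, against 5.44, 5.22 and 5.01 in mock roots, and again no array with CHX reached those without. It differed by -0.51 (adjusted p = 0.0109) and -0.70 (adjusted p = 0.00149). These 3 genes lost both calls with quantile normalization, where their differences were between -0.36 and -0.00 with adjusted p from 0.062 to 0.978. AT1G14890 also lost the first call without mock replicate 1 (adjusted p = 0.0502). With DEX they were not called: AT4G25260 had 0.21 without and 0.20 with CHX, and AT1G14890 had 0.23 and 0.05.

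The remaining 3 genes, all dim, were called in none of the comparisons on the deposited scale. AT5G62360 had 1.70, 2.20 and 1.90 with DEX+CHX and 2.19, 2.19 and 2.41 with CHX, and its difference of CHX from mock, 0.42, was close to the threshold (adjusted p = 0.0519). It passed in 8 of 19 other settings. These were the replicate block (adjusted p = 0.0352), quantile normalization (0.65, adjusted p = 0.00427), just the arrays compared (adjusted p = 0.0487) and 5 fits that left out 1 array. AT2G01610 had 2.36, 2.64 and 2.89 with DEX+CHX and 3.13, 2.88 and 2.61 with DEX.

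AT2G01610 had 2.35, 2.76 and 2.50 with CHX, against 2.64, 3.13 and 3.36 in mock roots. It differed by -0.51 with CHX against mock (adjusted p = 0.0528), and the arrays overlapped. It passed the threshold in 7 of 19 other settings, among them centring and 6 fits that left out 1 array (mock replicate 1, DEX replicate 1 or 3, DEX+CHX replicate 1 or 3, or CHX replicate 2), with a lowest adjusted p of 0.0097. AT4G02250 had 4.15, 4.11 and 3.75 with DEX+CHX, 4.15, 3.54 and 4.13 with DEX, 4.44, 4.21 and 4.16 with CHX, and 3.86, 3.99 and 4.20 in mock roots. Its 4 group means lay within 0.33 of each other, and groups next to each other in the order of means (CHX, mock, DEX+CHX, DEX) overlapped. With quantile normalization it was called higher with CHX (0.71, adjusted p = 0.0039) and with DEX+CHX over DEX (0.50, adjusted p = 0.0257).

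Beyond the 9 genes, CHX against mock called 13 of the other 57 family genes (4 higher and 9 lower), and DEX+CHX against DEX called 11 (3 higher and 8 lower). These are 22.8% and 19.3%, against 54.9% and 55.8% of all genes. The largest difference was that of AT3G49330. It had 4.15, 3.75 and 3.68 with DEX+CHX and 9.77, 10.10 and 9.56 with DEX. It had 4.43, 4.26 and 3.23 with CHX, against 10.17, 9.75 and 9.54 in mock roots. It was thus lower by 5.95 ± 0.29 (difference -5.95, adjusted p = 5.36e-09) with DEX+CHX against DEX, and the CHX against mock difference was -5.85 ± 0.29 (adjusted p = 6.35e-09), with differences of -0.01 and -0.11 for DEX.

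AT4G25250, the neighbour of AT4G25260 in the gene order, was lower with CHX too, with differences of -2.13 from mock (adjusted p = 2.07e-08) and -2.31 with DEX+CHX against DEX (adjusted p = 1.03e-08). AT3G17150 was higher, by 3.10 (adjusted p = 7.89e-07) and 2.28 (adjusted p = 1.14e-05). AT5G51520 (-1.28 and -1.33) and AT3G17130 (-1.36 and -1.01) were lower in both comparisons, as were AT1G70720 (-1.24 and -0.68), AT5G50060 (-0.76 and -0.62) and AT1G23205 (-0.39 and -0.60). AT1G09370 (1.13 and 0.72) and AT3G17225 (0.91 and 0.99) were higher in both. Called with CHX against mock alone were AT5G46930 (-0.54), AT1G09360 (-0.39) and AT3G47670 (0.31), and with DEX+CHX against DEX alone AT1G10770 (-0.73). The difference between the comparisons was not called for any of these genes. With quantile normalization AT1G70720 (-0.18), AT5G50060 (-0.28), AT1G23205 (-0.19) and AT1G10770 (-0.33) lost the DEX+CHX against DEX call. AT1G23205 (-0.01 there), AT1G09360, AT5G46930 and AT3G47670 lost the CHX against mock call in 9, 4, 5 and 4 other settings.

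Over the 65 measured family genes other than AT1G62770, 27.7% were called with CHX against mock and 24.6% with DEX+CHX against DEX, below the shares of all genes. Of the 65, 45 were in the dimmest 30% of genes, where 6 were called with CHX against mock, and 12 of the other 20 were called. Of all genes, dim and bright together, 54.9% were called in this comparison. That share was not computed for dim and brighter genes apart. Whether dimness accounts for the family's lower share was not tested. With quantile normalization the family's calls with CHX against mock were 21 higher and 7 lower, in place of 5 and 13, and with centring 4 higher and 19 lower. The direction of the family's balance with CHX thus turns with the scaling, while AT3G47380 kept its direction and its call in all 20 other settings.

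**Figure D3:**
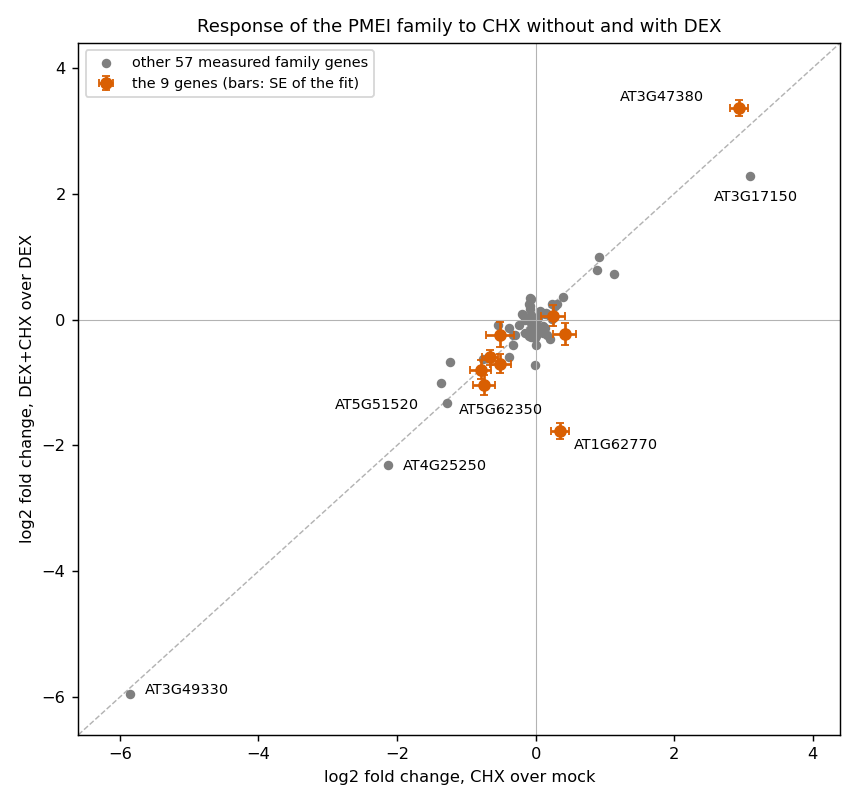
Log2 fold change of the 66 measured PMEI family genes with CHX over mock (horizontal) and with DEX+CHX over DEX (vertical). Orange points are the 9 genes with the SE of the fit, grey points the other 57, and the dashed line marks equal values. Most genes lie near the dashed line, AT3G49330 (-5.85 and -5.95) and AT3G47380 (2.93 and 3.36) far from 0, and AT1G62770 (0.35 and -1.77) lies off the line.

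Genes for the enzymes that PMEIs inhibit and for enzymes that act on the same pectin were counted for comparison. Of 49 pectin methylesterases measured, 0 were called higher and 1 lower with DEX against mock, and 0 were called with DEX+CHX against CHX (2 at an unadjusted p below 0.05). The shares of all genes called were 1.52% and 0.592%, against 2.04% and 0% here. The called gene, AT2G43050, had 5.59, 5.67 and 5.63 on the DEX arrays, against 5.89, 6.27 and 6.16 on the mock arrays. It fell by 0.47 (adjusted p = 0.0461), and the call was lost in 14 of 20 other settings. The median of the 49 was -0.02 with DEX and -0.00 with DEX+CHX, against 0.03 and -0.01 over all genes. Other proteins of the family inhibit acid invertases. Of 8 genes listed here as acid invertases, 2 were measured, and the enzyme activity of their proteins was not checked. Neither was called by limma with DEX against mock, though both had an unadjusted p below 0.05. With DEX+CHX against CHX neither was called, and 0 had an unadjusted p below 0.05.

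Polygalacturonases cut homogalacturonan that has lost its methyl groups. Of 60 measured, 5 rose with DEX (8.33%, against 1.11% of all genes called higher) and none fell. The list was chosen with earlier results of these data known, so these shares are a description. AT1G10640 had 7.77, 7.58 and 7.93 on the DEX arrays, against 5.36, 5.39 and 5.23 on the mock arrays, a difference of 2.43 ± 0.15 (adjusted p = 7.66e-06). AT5G14650 differed by 2.12 ± 0.16 (adjusted p = 2.41e-05) and AT3G59850 by 1.18 ± 0.12 (adjusted p = 0.000189). The other 2, AT1G48100 (1.37) and AT4G01890 (0.95, a call lost with just the arrays compared), are named after their values were seen. The median of the 60 was 0.05.

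With DEX+CHX against CHX, 2 of the 60 polygalacturonases rose (3.33%, against 0.55% of all genes called higher), again as a description. AT3G59850 had 4.97, 5.02 and 4.62 on the DEX+CHX arrays, against 3.83, 3.93 and 3.98 on the CHX arrays, a difference of 0.96 ± 0.12 (adjusted p = 0.00177). AT2G43890 differed by 1.03 ± 0.16 (adjusted p = 0.0127), a call lost without any of 5 arrays (DEX+CHX replicate 1 or 2, or CHX replicate 1, 2 or 3). AT1G10640 was at -0.03 and AT5G14650 at 0.37 in this comparison. Their responses with CHX minus those without were -2.46 ± 0.22 (adjusted p = 0.000409) and -1.74 ± 0.22 (adjusted p = 0.0076), beside -2.11 ± 0.18 for AT1G62770. AT1G62770 had 1.31 in this comparison, and the difference between the genes was not tested.

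Of 23 pectate lyases, which cleave pectin of low methylation, 0 were called with DEX against mock (4 at an unadjusted p below 0.05) and 1 with DEX+CHX against CHX, AT1G67750 (0.91 ± 0.14, adjusted p = 0.0122). That call was lost in 5 of 20 other settings, among them the fit without CHX replicate 1 or 3 or without DEX+CHX replicate 1 or 2 (highest adjusted p = 0.0733). Of 6 pectin acetylesterases, which remove acetyl groups from pectin, AT3G09405 rose with DEX by 0.83 ± 0.16 (adjusted p = 0.0228). This call was lost in 4 of 20 other settings (all rows tested, just the arrays compared, and without DEX replicate 1 or 2; highest adjusted p = 0.175). With DEX+CHX against CHX, 0 were called, also at an unadjusted p below 0.05. None of 16 pectin synthesis genes had a named row.

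CHX against mock called 9 pectin methylesterases higher and 13 lower of 49, and 7 polygalacturonases higher and 20 lower of 60. It called 6 pectate lyases higher and 6 lower of 23, and 1 pectin acetylesterase higher and 4 lower of 6. The shares were 44.9%, 45%, 52.2% and 83.3%, against 54.9% of all genes. Among the pectin methylesterases, AT4G02330 rose with CHX by 3.18 ± 0.18 (adjusted p = 2.4e-08) and AT3G10720 by 1.90 ± 0.09 (adjusted p = 6.17e-09), and AT5G19730 differed by -2.25 (adjusted p = 5.66e-09). AT3G09405 rose by 6.43 ± 0.16 (adjusted p = 2.13e-11). As for the family, the balance of higher and lower calls turned with quantile normalization for the pectin methylesterases, at 17 higher and 9 lower, and for the polygalacturonases, at 19 higher and 16 lower.

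**Figure D4:**
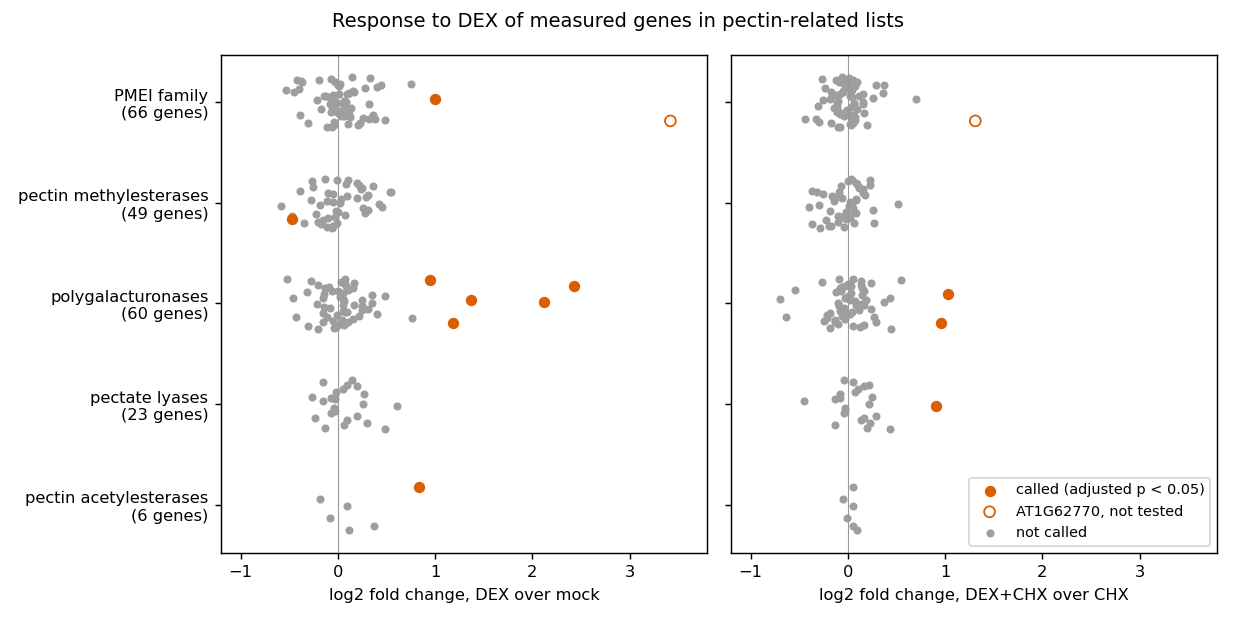
Log2 fold change of each measured gene in 5 pectin-related lists with DEX over mock (left) and with DEX+CHX over CHX (right). Each point is 1 gene, orange where it was called, and the open circle is AT1G62770, which was not tested. Calls are few in all lists, and the polygalacturonases hold 5 called genes on the left and 2 on the right.

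The genes whose pattern over the 12 arrays was most like that of AT1G62770, by Pearson's r among all named genes, were AT5G55050 (0.957), AT3G20300 (0.957), AT3G57950 (0.955), AT5G17340 (0.945) and AT2G43470 (0.941). The 12 arrays form 4 treatment groups, so r mostly reflects the order of 4 means, and it is given as a description. Within the family the highest r was that of AT5G62350 (0.813), the median was 0.0608 and the lowest was -0.567 for AT5G50070. For AT1G62760, the neighbour of AT1G62770, r was 0.366, and for AT3G47380 it was -0.334.

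AT3G57950 had 8.26, 8.27 and 7.71 with DEX+CHX and 9.02, 9.25 and 8.86 with DEX. It had 6.48, 6.30 and 6.23 with CHX, against 6.41, 6.59 and 5.99 in mock roots. The DEX arrays were highest and the CHX and mock arrays overlapped, whereas CHX and mock did not overlap for AT1G62770. The DEX response without CHX was 2.13, 1.40, 2.71, 2.17 and 2.62 for the 5 genes in the order of r, and with CHX it was 1.24, 0.78, 1.74, 0.62 and 0.73. AT1G62770 had 3.42 and 1.31. The 5 genes were picked for following the order of its levels, so these values are a description.

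**Figure D5:**
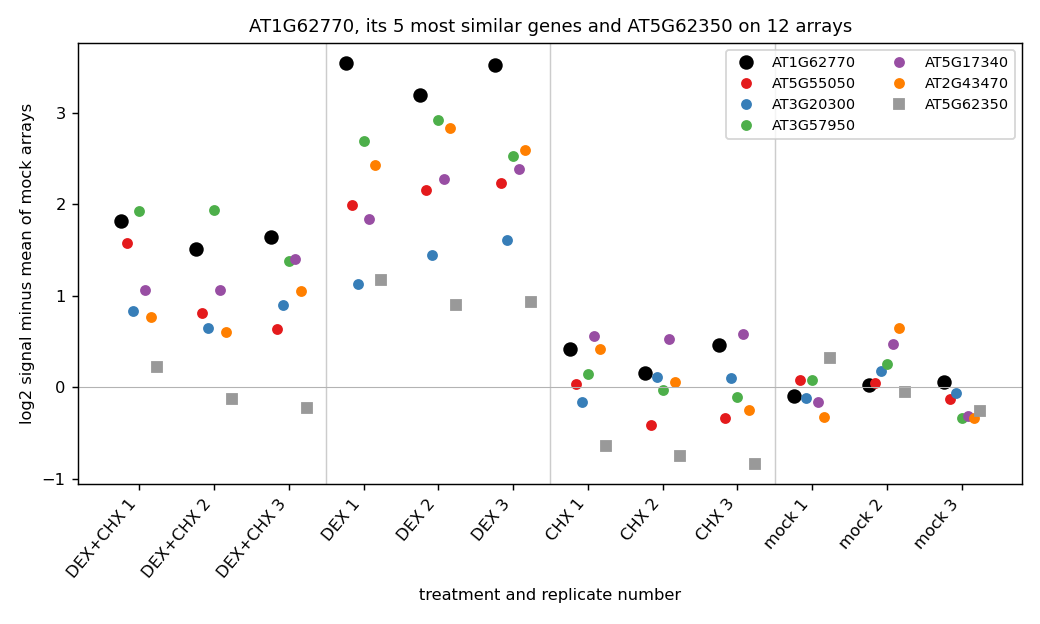
Log2 signal of AT1G62770, of the 5 genes with the highest correlation with it and of AT5G62350 on each of the 12 arrays, as the difference from the mean of the mock arrays of the same gene. All genes are highest with DEX. AT5G62350 alone is below its mock mean on all 3 CHX arrays and near it on the DEX+CHX arrays, where the other 6 genes are above theirs.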

How the data were processed

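Total RNA of 12 root samples, in 4 treatment groups of 3, was hybridised to Affymetrix arrays. The authors deposited 1 table of processed values. These are log2 expression values, per the labels' processing notes made with Affymetrix Expression Console 1.3; which summarisation, normalization or background step was run is not stated in any source used here. The log base was read from the values, whose maximum of 13.98 lies above 11.1, the natural log of the largest 16-bit intensity. The values run from 0.4258 and hold no detection calls. The number of arrays, 3 per group, limits the precision.

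Of 38408 rows, 16722 name 1 gene in the platform annotation, 759 name several and 20927 none. A gene with several probe sets was represented by the brightest on average, which gave 16550 genes, of which 16411 are in RefSeq (TAIR10.1), used for names and gene order only. No further normalization was applied. Group means were fitted to all 12 arrays with limma 3.58.1 in R 4.3.3 (lmFit, eBayes), 5 contrasts were tested two-sided, and p-values were adjusted by Benjamini-Hochberg over all 16550 genes. The script was tested on simulated data. Replicates are separate RNA sets per the labels. By the data, not by the labels, same-numbered arrays of DEX+CHX and CHX deviated together (correlations of deviations 0.157 to 0.332, all over 0.1). In the other comparisons the correlations were positive too, but not all over 0.1. They were 0.0533 to 0.227 for DEX against mock and 0.077 to 0.211 for CHX against mock. For DEX+CHX against DEX they were 0.0726 to 0.189. The main fit modelled no pairing in any comparison.

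No test is given for AT1G62770, although one was planned for 3 of its contrasts, because the values it was chosen on hold all 4 groups. The 9 genes, the gene lists (77 PMEI family loci listed, and the pectin, invertase and marker lists) and the tests were chosen with earlier results of these data known. Named are all 9 genes, every other PMEI family gene called in a comparison, and up to 3 called genes per other list and comparison. The 5 genes most correlated with AT1G62770, LBD16 and the measured shoot and root hair markers are named too. AT5G62340 is named for its place in the gene order and AT5G50070 for its lowest r. AT1G48100 and AT4G01890 were named, and AT1G10770 was singled out for DEX, after their values were seen. Alternatives covered normalization, centring, a filter on dim genes, averaging of probe sets, all rows, the variance model, the arrays in the fit, the replicate block, the threshold and each array left out.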

Additional observations from a re-analysis of the deposited data

Results flagged for a closer look

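A difference between the DEX response with CHX and that without CHX marked 3 genes for a closer look. AT1G62770 had a value of -2.11 ± 0.18 (SE, not tested, because the gene was chosen on it), from a response of 1.31 with CHX and 3.42 without. AT1G10640 had -2.46 ± 0.22 (adjusted p = 0.000409), from -0.03 with CHX and 2.43 without. AT5G14650 had -1.74 ± 0.22 (adjusted p = 0.0076), from 0.37 with CHX and 2.12 without. Groups of 3 arrays are too small for a test of single outlying arrays.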

How the results depend on the processing

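For AT1G62770 the difference of DEX+CHX from CHX ranged from 1.21 to 1.38 over 20 alternatives. That of CHX from mock ranged from 0.23 to 0.83. For either difference, most of these alternatives cannot move it, because they leave the group means as they are. With quantile normalization its DEX response was 3.60, the CHX against mock difference 0.83, the DEX+CHX against DEX difference -1.57 and the response with CHX minus that without -2.39; the cause was not tested. Genes called with DEX against mock numbered 130 with just the arrays compared, 120 at an adjusted p below 0.01, and 150 to 229 with an array left out, with 150 without mock replicate 3. For DEX+CHX against CHX they numbered 61, 55 and 62 to 98, with 62 and 64 without DEX+CHX replicates 1 and 2 and 64 without CHX replicate 3. Testing all rows, which adds unnamed ones, gave 23040 for CHX against mock, 23549 for DEX+CHX against DEX and 32 for the difference of responses, and a trended robust variance gave 53 for the last. With the replicate block, 315, 105, 9436, 9635 and 22 genes were called in the 5 comparisons, and among the 9 genes it added AT5G62350 (DEX+CHX against CHX, adjusted p = 0.0104) and AT5G62360 (CHX against mock, adjusted p = 0.0352) and took away none. With no detection calls, signal over background is unknown, and small differences of the dimmest 30% of genes are the least certain.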
